A study of Mus musculus with 6 samples.

Results

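A set of 9 members of the POU transcription factor family was followed through retinoic acid (RA)-induced differentiation: Pou2f1, Pou2f2 and Pou2f3 of class II, Pou3f1, Pou3f2, Pou3f3 and Pou3f4 of class III, Pou4f1 of class IV and Pou6f1 of class VI. They were taken by gene name from the deposited RNA-seq table, which has 23235 entries, and all 9 names were found, each as a single entry. The cells were E14Tg2a, a line of pluripotent mouse embryonic stem cells (ESCs), at passages 37 to 40. ESCs were grown in serum with leukemia inhibitory factor (LIF), the cytokine that holds them in self-renewal, and the differentiating cells, which the study calls NCs, were monolayers of the same line without LIF after 48 h in 1 μM RA. Each condition had 3 samples, and the table gives 1 FPKM value per gene and condition (a level scaled to transcript length and to the number of mapped fragments), so the spread between samples is not known. No SD, interval or p-value therefore stands beside any value, and a gene is called higher or lower only as a description, when its FPKM values differ by at least 2-fold.

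POU proteins bind DNA through a POU-specific domain and a POU homeodomain joined by a flexible linker, and many of them read the octamer ATGCAAAT. The classes differ in where they act: class II holds the widely expressed OCT1 and factors of lymphoid and epithelial cells, class III is known mainly from neural progenitors, and class IV from sensory neurons. Pou5f1, which encodes the pluripotency factor OCT4, is the class V member of the same family and is given here only as a reference point.

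Among the 9 genes, the values of Pou3f2, Pou3f3, Pou3f4 and Pou4f1 were at least 2-fold higher in NCs, those of Pou2f3 and Pou3f1 were at least 2-fold lower, and those of Pou2f1, Pou2f2 and Pou6f1 lay within 2-fold. A total of 16192 entries had a mean of the ESC and NC values of at least 0.1 FPKM and were counted, and all 9 POU genes were among them. Of all counted entries, 15.2% were at least 2-fold higher in NCs and 12.0% at least 2-fold lower, 27.2% in either direction. Most POU genes had low values, and low entries passed 2-fold more often: among the 5634 entries with a mean from 0.1 to 3 FPKM, 28.7% were higher and 18.6% lower. In that range lay 7 of the POU genes, with 4 higher and 1 lower. The median log2 ratio (NC over ESC) was 0.38 for the 9 genes and -0.01 for all counted entries. The shares and median over the table are also the background for the counts over gene lists below. In bulk RNA, fewer cells of a type and less RNA per cell cannot be told apart, and this holds for every difference below.

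**Figure D1:**
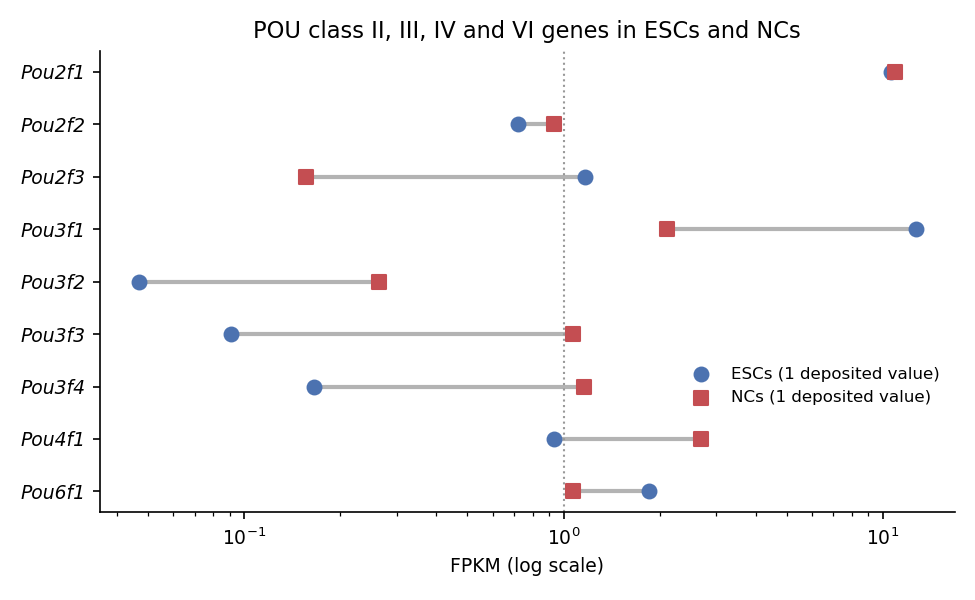
FPKM of the 9 POU genes (log axis) in ESCs (circles) and NCs (squares), 1 deposited value per gene and condition with no error available; the dotted line marks 1 FPKM. The ESC and NC marks of Pou2f1 lie side by side near 11 FPKM, the NC marks of Pou3f1, Pou2f3 and Pou6f1 lie to the left of their ESC marks, and those of Pou2f2, Pou3f2, Pou3f3, Pou3f4 and Pou4f1 to the right.

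In ESCs the order of FPKM levels was Pou3f1, Pou2f1, Pou6f1, Pou2f3, Pou4f1, Pou2f2, Pou3f4, Pou3f3 and Pou3f2. The order in NCs was Pou2f1, Pou4f1, Pou3f1, Pou3f4, Pou3f3, Pou6f1, Pou2f2, Pou3f2 and Pou2f3. At least 1 FPKM was reached by 4 of the genes in ESCs and by 6 in NCs. The widest gap between neighbours in ESCs was the 5.71-fold step from Pou2f1 down to Pou6f1, and in NCs the 4.05-fold step from Pou2f1 down to Pou4f1. Pou3f3 and Pou6f1 had nearly equal NC levels, a ratio of 1.00, Pou3f4 and Pou3f3 differed by 1.08-fold and Pou6f1 and Pou2f2 by 1.15-fold. Whether such neighbours differ beyond the spread of samples cannot be read from these values.

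Pou2f1 (chromosome 1, 165865154 to 166002678, minus strand, mm10) encodes OCT1, which is present in most cell types and serves snRNA and histone H2B promoters among many others. It had 10.6 FPKM in ESCs against 10.9 FPKM in NCs, a log2 ratio of 0.05. This placed it at percentile 71.2 of all entries in ESCs and 71.6 in NCs, and it was the POU gene of the 9 whose values lay closest together. Its GENCODE transcripts range from 2201 to 13050 bases in 8 forms, so that the FPKM rests on how reads were divided among forms of very different length. The longest form runs into Cd247, a T cell receptor chain gene on the opposite strand, and shares 22.1% of its 50-base words with it. Cd247 itself had 0.180 FPKM in ESCs against 0.133 FPKM in NCs.

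Pou2f2 (chromosome 7, 25087344 to 25179726, minus strand) encodes OCT2, best known from B lymphocytes. Its values were 0.718 FPKM in ESCs against 0.934 FPKM in NCs, a 1.30-fold difference that stayed within the limit. D930028M14Rik, a long noncoding RNA gene inside the Pou2f2 span on the opposite strand, had 0.958 FPKM in ESCs against 0.298 FPKM in NCs, which is the other direction.

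Pou2f3 (chromosome 9, 43123939 to 43210369, minus strand) encodes OCT11, also called SKN-1A, a factor of keratinocytes and of chemosensory tuft cells. It ranked 4 of the 9 in ESCs, at 1.17 FPKM, and was the lowest in NCs, at 0.156 FPKM. The log2 ratio was -2.91, a 7.50-fold lower value in NCs. Its place among all entries went from percentile 48.0 to percentile 33.4.

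Summed over class II, the FPKM was 12.5 in ESCs and 12.0 in NCs, a 1.03-fold difference. Pou2f1 made up 84.8% of that sum in ESCs and 90.9% in NCs, while the share of Pou2f3 went from 9.40% to 1.30%. Most of the class II total was thus Pou2f1 in both conditions.

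Pou3f1 (chromosome 4, 124656807 to 124660655, plus strand, a gene without introns) encodes OCT6, also called SCIP or TST-1, which is known from the epiblast, embryonic stem cells and myelinating Schwann cells. It was the highest of the 9 in ESCs, at 12.7 FPKM, and had 2.11 FPKM in NCs. The value in NCs was 6.0-fold lower, a log2 ratio of -2.58, and the gene ranked 1 of the 9 in ESCs and 3 in NCs. Gm2164, an antisense gene, covers the start of Pou3f1 and shares 7.42% of the 50-base words of its transcript. The library kit was not stated to mark strand, so reads of such antisense partners cannot be told apart.

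The other class III genes, likewise single exons in the annotation, all had their higher value in NCs. Pou3f2 encodes BRN2, Pou3f3 encodes BRN1 and Pou3f4 encodes BRN4. BRN1 and BRN2 overlap in function in cortical progenitors, and BRN4 is known from the neural tube and the inner ear. The sequences just upstream of these genes, and of Pou4f1, are printed from the RefSeq table (GRCm38.p6, the assembly that mm10 also names), since these are the 4 genes of the list with at least 2-fold higher values in NCs. Each stretch is the sense strand, ends at the base before the first base of the GENCODE transcript, and has CCAAT, read on either strand (ATTGG in the printed letters where it lies on the other), in capitals.
Pou3f2 (chr4:22488367-22488616, minus strand): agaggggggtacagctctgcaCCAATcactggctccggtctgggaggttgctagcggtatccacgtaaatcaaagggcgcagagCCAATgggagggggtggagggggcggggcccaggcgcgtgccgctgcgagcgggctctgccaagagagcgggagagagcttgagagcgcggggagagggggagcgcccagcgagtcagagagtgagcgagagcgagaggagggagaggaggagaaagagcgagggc
Pou3f3 (chr1:42695518-42695767, plus strand): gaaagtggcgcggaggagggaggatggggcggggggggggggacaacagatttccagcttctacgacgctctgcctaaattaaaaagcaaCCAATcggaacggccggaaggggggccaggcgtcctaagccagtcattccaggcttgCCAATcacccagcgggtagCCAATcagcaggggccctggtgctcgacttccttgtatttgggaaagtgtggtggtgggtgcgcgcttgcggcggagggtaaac
Pou3f4 (chrX:110814129-110814279, plus strand): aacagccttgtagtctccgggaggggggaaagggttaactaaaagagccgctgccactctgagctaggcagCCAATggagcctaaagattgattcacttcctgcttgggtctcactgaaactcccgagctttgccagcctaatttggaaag
Pou4f1 (chr14:104468000-104468249, minus strand): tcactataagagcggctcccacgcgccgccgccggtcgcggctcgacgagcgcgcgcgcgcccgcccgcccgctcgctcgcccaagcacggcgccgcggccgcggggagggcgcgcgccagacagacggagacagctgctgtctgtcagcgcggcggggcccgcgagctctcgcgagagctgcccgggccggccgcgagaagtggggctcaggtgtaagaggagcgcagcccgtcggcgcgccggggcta

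The CCAAT letters were searched after the sequences had been seen. Pou2f3 and Pou3f1, whose values were at least 2-fold lower in NCs, had no entry in the RefSeq table and could not be searched. Whether the letters go with direction or class can therefore not be read from these windows. In windows from 250 bases before to 50 bases after the RefSeq start, which for Pou3f4 lies downstream of the GENCODE start, at 110814379, CCAAT occurred 2 times for Pou3f2, 3 times for Pou3f3 and 3 times for Pou3f4, of which 1 lies in its printed stretch, and 0 times in the windows of Pou2f1, Pou2f2, Pou4f1 and Pou6f1. Of all 32851 RefSeq windows of that length, 37.4% held at least 1 CCAAT, 11.7% at least 2 and 3.37% at least 3. The octamer ATGCAAAT was in 1.74% of all windows and in 0 of the windows of the 7 POU genes with an entry in that table, and the looser ATGNAAAT in 5.67% and again 0. Direct repeats of AGGTCA or AGTTCA with 5 bases between them, the usual form of an RA response element, were in 0.0396% of all windows and in 0 of these. Against a median of 7 CG steps over all windows, Pou4f1 had 57, at percentile 99.9, Pou3f2 had 24, Pou3f3 18 and Pou3f4 15. Pou6f1 and Pou2f2, whose values lay within 2-fold, had 26 and 13. Of the 3 Pou2f1 windows, 1 had 32 and the others had 2 each. These are matches of letters in short windows and say nothing of binding.

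Pou3f2 (chromosome 4, 22482780 to 22488366) had 0.0468 FPKM in ESCs against 0.265 FPKM in NCs. The log2 ratio was 2.50, a 5.67-fold higher value in NCs, yet the gene remained under 1 FPKM in both conditions. Pou3f3 (chromosome 1, 42695768 to 42703176) had the largest ratio of the 9, with 0.0909 FPKM in ESCs against 1.07 FPKM in NCs. This is 11.8-fold higher in NCs, a log2 ratio of 3.56. AC122898.1, a gene on the same strand, spans Pou3f3 and is not among the entries. Pou3f4 (chromosome X, 110814280 to 110817207) had 0.165 FPKM in ESCs against 1.16 FPKM in NCs, 7.03-fold higher, with a log2 ratio of 2.81. At most 0.799% of the 50-base words of each of these transcripts occurred in another gene.

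Depth per sample is unknown, but values near the bottom of the table piled up, for single-transcript genes, at certain steps. For 1 kb of transcript to which fragments of 200 bases can align, the most frequent low values were 0.0119 and 0.0138 FPKM in ESCs and 0.00714 and 0.0143 FPKM in NCs. Within 5% of these lay 79.1% of 301 ESC values and 66.4% of 422 NC values above 0 and under 0.016 FPKM on that scale. The steps were picked as the most frequent of these same values, so the shares do not bear on what a step is worth. Each step was taken as what 1 fragment is worth, which was not tested. If the higher step is worth more than 1 fragment, the lower number of each range below is too low. By these steps, which were read after the data had been seen, the ESC value of Pou3f2 corresponds to about 18 to 21 fragments over the 3 samples and its NC value to about 100 to 200. The same reading gives 48 to 55 fragments for Pou3f3 and 33 to 38 for Pou3f4 in ESCs, and 542 to 1083 and 222 to 444 in NCs. For Pou2f3 it gives 197 to 228 fragments in ESCs and 25 to 51 in NCs. A floor of 3 fragments was passed by all 9 genes in both conditions. These numbers assume the transcript lengths of GENCODE M21 and cover counting error only.

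The sum over class III was 13.0 FPKM in ESCs against 4.62 FPKM in NCs, 2.81-fold lower. Pou3f1 accounted for 97.7% of the sum in ESCs and 45.8% in NCs. Pou3f2, Pou3f3 and Pou3f4 together had 0.303 FPKM in ESCs against 2.50 FPKM in NCs, 8.25-fold higher, and their share of the class went from 2.33% to 54.2%. In NCs, Pou3f4 held 25.2% of the class sum, Pou3f3 23.2% and Pou3f2 5.75%. The class total and the sum of Pou3f2, Pou3f3 and Pou3f4 thus went in opposite directions. Between the conditions, the FPKM of Pou3f1 differed by more than the summed FPKM of the other 3.

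**Figure D2:**
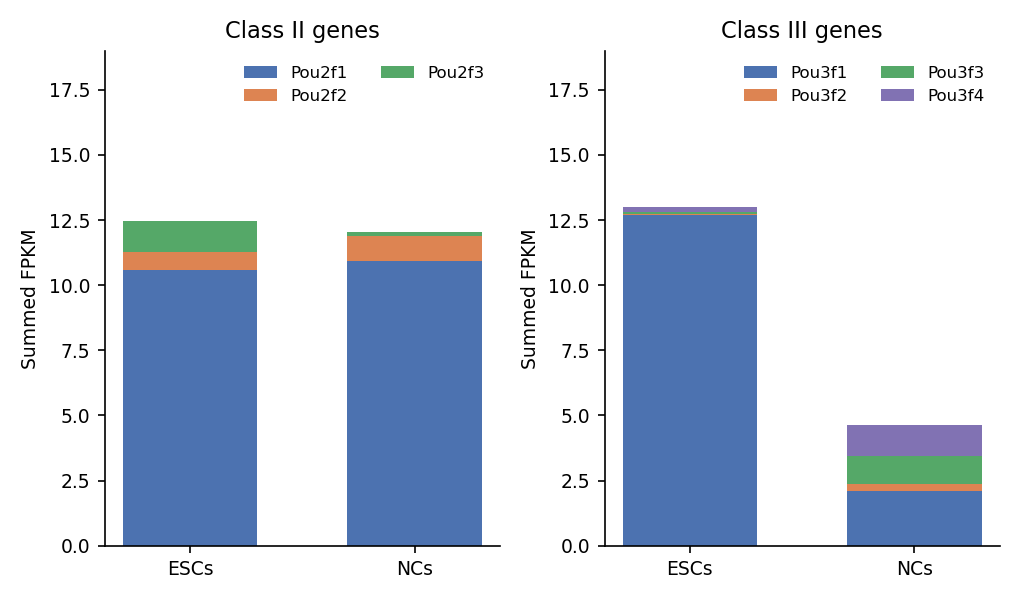
Summed FPKM of the class II genes (left) and class III genes (right) in ESCs and NCs, with 1 colour per gene and linear axes from 0; each bar stacks single deposited values, so no error bars can be drawn. Class II stays near 12 FPKM and is mostly Pou2f1, whereas class III is nearly all Pou3f1 in ESCs and is shared by its 4 genes in NCs.

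Pou4f1 (chromosome 14, 104461676 to 104467999, minus strand) encodes BRN3A, a factor of sensory neurons of the dorsal root and cranial ganglia and of some midbrain and habenular neurons. It had 0.934 FPKM in ESCs against 2.70 FPKM in NCs, 2.89-fold higher, with a log2 ratio of 1.53. Among the 9 genes it ranked 5 in ESCs and 2 in NCs, where only Pou2f1 was higher. Its transcript has 3 exons and 4445 bases, which corresponds to about 288 to 332 fragments in ESCs and 804 to 1605 in NCs by the steps above.

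Pou6f1 (chromosome 15, 100575318 to 100599984, minus strand) encodes BRN5, which is found in brain and several other tissues. It had 1.85 FPKM in ESCs against 1.07 FPKM in NCs. The value in NCs was 1.72-fold lower, within the 2-fold limit and past a limit of 1.5-fold. Its annotated transcripts carry 6 to 11 exons, and Gm27209, an antisense gene that is not listed in the table, lies inside its span.

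**Figure D3:**
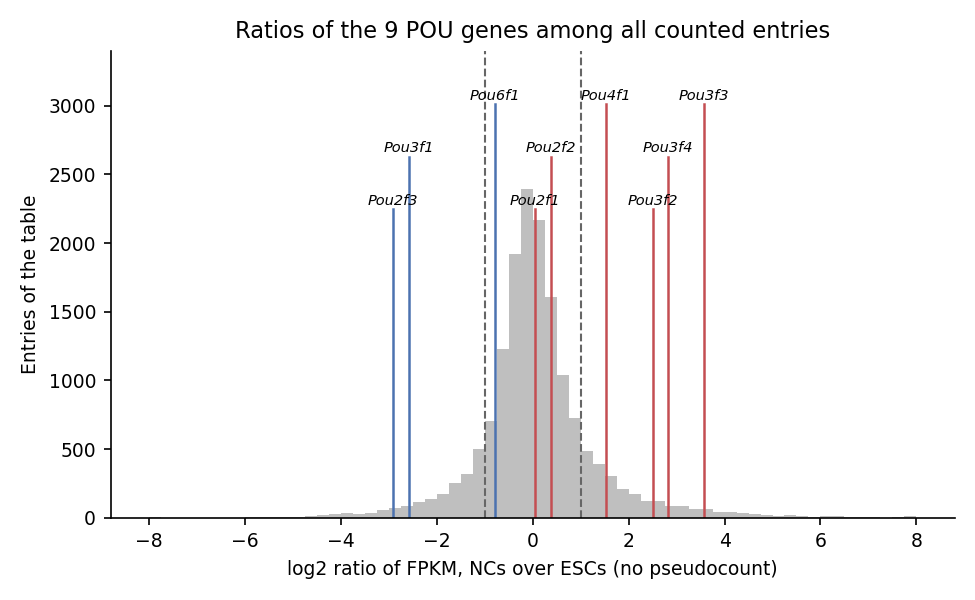
Histogram of the log2 ratio of FPKM (NCs over ESCs, no pseudocount) over the counted entries, in bins of 0.25, with the 9 POU genes as vertical lines (blue below 0 and red above it, their heights only keeping the names apart); the 125 counted entries with a value of 0 in 1 condition are not drawn, and 15 entries beyond 8 in either direction are drawn at the edge. Dashed lines mark a 2-fold difference: Pou2f3 and Pou3f1 lie to the left of them, Pou4f1, Pou3f2, Pou3f4 and Pou3f3 to the right, and Pou6f1, Pou2f1 and Pou2f2 between them.

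Because most of these levels are low, the calls depend on the size of any pseudocount that is added. With 0.1 FPKM added to both values, all 6 genes stayed past 2-fold in their direction, and the log2 ratio of Pou3f2 was 1.32. With 1 FPKM added, Pou3f1 stayed past the limit, at -2.14, and the other 5 were within it, at -0.91 for Pou2f3, 0.27 for Pou3f2, 0.93 for Pou3f3, 0.89 for Pou3f4 and 0.94 for Pou4f1.

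**Figure D4:**
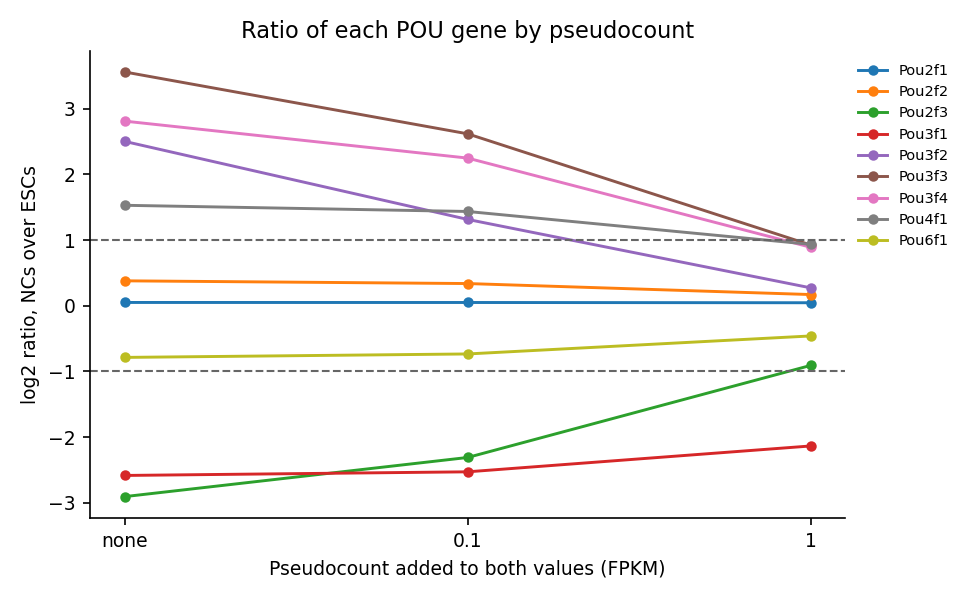
Log2 ratio (NCs over ESCs) of each of the 9 genes with no pseudocount, with 0.1 FPKM and with 1 FPKM added to both values; dashed lines mark 2-fold. Pou3f1 stays below -2 throughout, and Pou2f3, Pou3f2, Pou3f3, Pou3f4 and Pou4f1 come within the lines at 1 FPKM.

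Of the rest of the family, 5 genes were set beside the 9, of which 3 were counted, 0 were higher and 3 lower in NCs. Pou5f1 had 832 FPKM in ESCs against 37.1 FPKM in NCs. Its FPKM was 29.5 times the sum of the 9 genes in ESCs and 1.82 times in NCs, where the 9 together had 20.4 FPKM against 28.2 FPKM in ESCs. The other 4 of them had at most 0.360 FPKM in either condition. Pou4f2, the retinal ganglion cell factor BRN3B, had 0.300 FPKM in ESCs against 0.00920 FPKM in NCs. Pou4f3, the hair cell factor BRN3C, had 0.360 FPKM in ESCs and was listed at 0 in NCs. Both class IV paralogs of Pou4f1 thus had their higher value in the other condition. With a pseudocount of 1 FPKM, Pou5f1 was the 1 gene of these past 2-fold. Pou1f1, the pituitary factor PIT1, and Pou5f2 had a mean under 0.1 FPKM and were not counted.

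OCT1 and OCT2 work with coregulators. HCF1, encoded by Hcfc1, is a partner of OCT1, the SNAPc complex is helped by OCT1 at snRNA promoters, and OBF1, encoded by Pou2af1, is the coactivator of OCT1 and OCT2 in B cells. Of 7 such genes 6 were counted, and 0 were past 2-fold in either direction. Hcfc1 had 54.2 FPKM in ESCs against 45.0 FPKM in NCs. The SNAPc subunit genes Snapc1 to Snapc5 lay between 6.60 and 26.9 FPKM in ESCs and between 5.86 and 27.5 FPKM in NCs, and Snapc4 had the largest difference, 1.59-fold lower in NCs. Pou2af1 stood at 0.00602 FPKM in NCs and was listed at 0 for ESCs. B cell genes, with which Pou2f2 is usually studied, were low: of 8 genes 4 were counted, 0 were higher and 3 lower in NCs (Cd79a, Cd79b and Ebf1), with at most 2.03 FPKM in ESCs. With a pseudocount of 1 FPKM none of the 3 was past 2-fold.

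For Pou2f3, 9 tuft cell genes had been listed, 8 were found and 5 counted. Higher in NCs were 3 (Dclk1, Ptgs1 and Hmx2), and 1 was lower (Gfi1b). The taste channel gene Trpm5, a defining tuft cell gene, had 0.0270 FPKM in ESCs against 0.0210 FPKM in NCs, and Avil had 0.212 and 0.217 FPKM. With a pseudocount of 1 FPKM, 0 were higher and 0 lower.

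Pou3f1 shares the epiblast with a set of genes of which 7 were listed and all counted. Of these, 4 were at least 2-fold lower in NCs and 1 was higher, with a median log2 ratio of -1.06. Otx2, a homeobox gene of the epiblast and forebrain, had 37.8 FPKM in ESCs against 0.166 FPKM in NCs. Fgf5 had 3.89 and 0.561 FPKM, and the de novo methyltransferase gene Dnmt3b 105 and 22.1 FPKM. The other de novo methyltransferase gene, Dnmt3a, had 17.4 FPKM in ESCs against 16.7 FPKM in NCs. The exception in direction was Sall2, a zinc finger gene, with 7.70 FPKM in ESCs against 21.1 FPKM in NCs. Of 5 Schwann cell genes 4 were counted, 1 was higher (Pmp22, 5.28 FPKM in ESCs against 102 FPKM in NCs) and 0 were lower.

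Class III factors bind many of their sites with SOX proteins. Of the 6 Sox genes listed, 4 were higher in NCs and 1 was lower, with a median log2 ratio of 1.53. Sox1, an early marker of neural fate, had 1.77 FPKM in ESCs against 21.8 FPKM in NCs, and Sox3 had 4.37 and 21.9 FPKM. Sox11, which like BRN2 acts in the passage to neurons, had 7.42 FPKM in ESCs against 16.6 FPKM in NCs. Sox2, the partner of OCT4 and of BRN2, was the lower one, with 258 FPKM in ESCs against 74.1 FPKM in NCs.

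Among 8 neural progenitor genes studied together with class III factors, 6 were counted, 3 were higher and 1 was lower in NCs. The proneural gene Neurog2 had 0.0436 FPKM in ESCs against 0.913 FPKM in NCs, and Pax6, a determinant of neural progenitors, 3.64 and 65.2 FPKM. Fabp7, a radial glia gene with sites for POU factors, had 1.11 FPKM in ESCs against 0.421 FPKM in NCs. Nes, whose neural enhancer is bound by class III factors, had 12.9 FPKM in ESCs against 18.3 FPKM in NCs, within 2-fold, as did the Notch ligand gene Dll1 with 5.33 and 4.31 FPKM. Hes5, a Notch target, had 0.592 FPKM in ESCs against 2.30 FPKM in NCs. With a pseudocount of 1 FPKM, 2 of the 8 were higher and 0 lower. The NC value of each of Pou3f3 and Pou3f4 was near that of Neurog2 and far under that of Pax6.

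**Figure D5:**
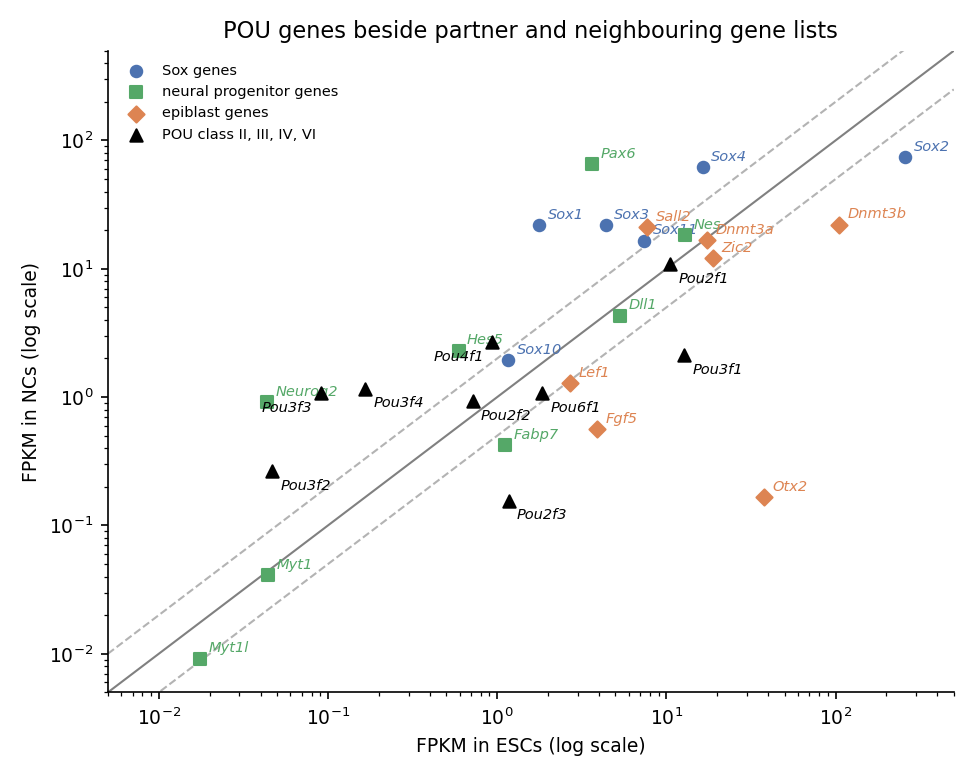
FPKM in NCs against FPKM in ESCs (both log axes, 1 deposited value per gene and condition) for the 9 POU genes (triangles) and the lists of Sox, neural progenitor and epiblast genes; the solid line marks equal values and the dashed lines a 2-fold difference. Pou3f2, Pou3f3 and Pou3f4 lie above the lines at low FPKM, below Pax6 and Sox1, and Pou3f1 lies under the lines with Fgf5, Dnmt3b and Otx2.

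Of 10 sensory neuron genes studied with Pou4f1, 9 were counted, 4 were higher and 1 was lower in NCs, with a median log2 ratio of 0.81. The higher genes were the proneural gene Neurog1 (0.0958 FPKM in ESCs against 0.710 FPKM in NCs), Runx3 (0.514 and 2.16 FPKM) and the neurotrophin receptor genes Ntrk2 (0.342 and 0.714 FPKM) and Ntrk3 (0.137 and 0.585 FPKM). Isl1, the LIM homeobox gene that marks sensory neurons together with BRN3A, stayed low, at 0.209 FPKM in ESCs against 0.299 FPKM in NCs. Neurod1 was the lower one, with 10.1 FPKM in ESCs against 0.259 FPKM in NCs. With a pseudocount of 1 FPKM, 1 of the 10 was higher and 1 was lower. Without a pseudocount, 15.2% of all counted entries were higher and 12.0% lower. Among entries with a mean from 0.1 to 3 FPKM, where the higher genes of this list lay, the shares were 28.7% and 18.6%.

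The labels of the cells were compared with marker genes. All 6 ESC markers were lower in NCs. Of 5 neural progenitor markers, 3 were higher, 1 was lower (Fabp7) and 1 was within 2-fold (Nes). Of 8 neuron markers, 1 was higher (Dcx, at 0.334 FPKM in NCs), 3 were lower (Tubb3, Elavl3 and Stmn2) and 4 were within 2-fold (Map2, Rbfox3, Elavl4 and Gap43). Tubb3 had 33.4 FPKM in ESCs against 7.54 FPKM in NCs, and Stmn2 142 and 11.8 FPKM. Of the endoderm markers, 4 of 6 were higher in NCs (2 with a pseudocount of 1 FPKM), and their summed FPKM was 7.91 in ESCs and 20.0 in NCs, while mesoderm markers, 1 higher and 1 lower of 5, summed to 2.51 and 1.96 FPKM. The part of cells other than neural ones in the POU values was not tested.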

How the data were processed

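The deposited table gives a single FPKM value per condition for each gene. According to the methods and the submitters' processing notes, the authors aligned TruSeq reads to mm10 with Bowtie2 2.1.0 through TopHat2 2.0.8, assembled transcripts with Cufflinks 2.0.2, merged them with Cuffmerge and ran Cuffdiff. The methods speak of UCSC genes, and neither the release of the annotation nor the version of Cuffdiff is given in the sources used here. Each condition had 3 replicates, and the deposited table gives 1 FPKM value for them, so no test or replicate error could be computed. The NC column is headed FPK and was taken as FPKM. The table also carries the fold changes and p-values of the authors' comparison, which were not used.

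The ratio of FPKM was taken without a pseudocount, over entries with a mean of at least 0.1 FPKM. The median log2 ratio of the 11717 entries with at least 1 FPKM in both conditions was -0.05. Described genes were the 9 POU genes and, from each list, those past 2-fold or with the highest level, with others named after their values were seen. The POU genes and lists were chosen with earlier results of these data known. Positions, transcripts and overlaps came from GENCODE M21 (GRCm38) and promoters from RefSeq, where 7 of the 9 genes had an entry, all but Pou2f3 and Pou3f1. The work used Python 3.11.15, numpy 2.4.6, pandas 2.3.3 and matplotlib 3.10.9. Other pseudocounts, filters, fold limits and centring were tried. No single-sample depth was given. Some genes of the lists are not reported here.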

Additional observations from a re-analysis of the deposited data

How the results depend on the processing

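No paired analysis was possible because the table holds 1 value per condition, and for the same reason no replicate could be left out. With a pseudocount of 1 FPKM, 0 of the 9 POU genes were at least 2-fold higher in NCs and 1 was lower. Of the 16192 counted entries, 1074 were higher and 974 lower at that setting. Counting entries with a mean of at least 1 FPKM left 4 POU genes, of which 1 was higher and 1 lower. That filter left 12784 entries of the table, of which 1419 were higher and 1270 lower. Over the 16192 counted entries, a limit of 1.5-fold gave 3827 higher and 3365 lower entries, and 4-fold gave 1065 and 697. Of 224 counts over the other gene lists, recomputed under alternatives added after the data were seen, 46 moved by more than 1.5 times. By the fragment steps, the ESC values of Pou3f2, Pou3f3 and Pou3f4 and the NC value of Pou2f3 rest on at most 55 fragments each.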
